A study of Solanum lycopersicum with 12 samples.

Results

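The Tomato Genome Array was used to measure transcripts in the aerial parts of tomato plants grown from coated or untreated seeds. Of 10038 tomato probe sets, 47 were selected on the measured values themselves. In these 47 the mean log2 signal of the amdS122 plants and that of the amdS6 plants both lay at least 0.585 (1.5-fold) above the control mean, and the mean of the T34 plants lay within 0.2 of it. The selected probe sets make up 0.468% of the tomato probe sets and come from 45 transcript clusters, the groups of sequences that share a number in the probe set name. Only 5 of the 47 carry a gene symbol in the array annotation (10.6%, against 9.06% of all tomato probe sets), namely Cel1, SBT1, CHS1, LOC543580 and LOC543656, and the other 42 are given here by their probe set names.

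There were 4 groups of 3 arrays, and every plant was harvested at 3 weeks. The amdS122 and amdS6 plants came from seeds coated with spores of 2 transformants of the fungus Trichoderma harzianum, which carry the Aspergillus nidulans amdS gene under the A. nidulans gpdA promoter. amdS122 carries 2 copies of the transformation cassette and amdS6 carries 1, and each is a single monosporic isolate, so that copy number, integration site and isolate cannot be told apart. T34 plants came from seeds coated with the parent strain, and control plants from untreated seeds. All plants grew in autoclaved loamy soil in a greenhouse. The sample labels name the tissue both as aerial parts and as leaves, and they give a lower spore concentration for the coating than the methods of the study do. RNA of 5 plants was pooled for each array, so the spread between arrays is a spread between pools.

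Trichoderma species live in the soil and on plant roots, where they antagonise other fungi and change the growth and defence of the plant, including organs they do not reach. The amdS gene encodes an acetamidase, an enzyme that splits acetamide into acetate and ammonium. The symbols among the selected probe sets stand for enzymes of 3 kinds. Chalcone synthase carries out the first step of flavonoid synthesis, endo-1,4-β-glucanases cut glucan chains of the cell wall, and subtilases are serine proteases, many of them secreted. No role is given here for the LOC symbols or for the probe sets without a symbol.

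The signals were log2 values with array medians between 7.80 and 7.87. The probe sets of 8 photosynthesis genes, among them the chlorophyll-binding proteins CAB4 and CAB5, lay between 13.8 and 14.4 in control plants, near the top of the scale. No probe set matched the list of root markers. The trichome list had 2 probe sets, SSTLE1 (a sesquiterpene synthase) and MTS1 (a monoterpene synthase). Their summed linear signal ranged between 130 and 139 in amdS122 plants, 228 and 237 in amdS6 plants, 145 and 147 in T34 plants and 101 and 102 in control plants, and its part in any result below was not tested. The sum followed SSTLE1, whose log2 difference from control was 0.56 in amdS122, 1.40 in amdS6 and 0.66 in T34 plants. For MTS1 the differences were -0.17, 0.10 and -0.04, so the 2 probe sets did not move together. The 3′ minus 5′ signal of the RNA quality probe sets ranged between 2.77 and 3.01 on amdS122 arrays, 2.99 and 3.12 on amdS6 arrays, 3.20 and 3.28 on T34 arrays and 3.30 and 3.44 on control arrays, so it was lowest where the selected probe sets were high. In bulk tissue, more cells of a type and more transcript per cell cannot be told apart.

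The rule removed most probe sets that were high in either transformant. A total of 304 probe sets reached the 1.5-fold limit in amdS122 plants, 230 reached it in amdS6 plants, and 99 did so in both. Of these 99, the T34 mean was at least 0.2 above control in 37 and at least 0.2 below it in 15, which left the 47. The mirror image of the rule, with both transformants at least 1.5-fold below control and T34 within 0.2, took 152 probe sets. The limits lie within a continuous range of values. Les.3290.3.S1_at was the last probe set inside the amdS6 limit, with a difference of 0.586, and ERF4, an ethylene response factor, was the first outside it with 0.584. On the amdS122 limit, Les.5842.1.S1_at stood inside with 0.591 and LesAffx.20922.1.S1_at outside with 0.582. For T34, Les.1784.1.S1_at stood inside with 0.197 and LesAffx.69931.1.S1_at outside with 0.202.

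The selected probe sets had a lower median signal than all tomato probe sets and a similar spread. In control plants they ranged between 5.23 and 11.1 on the log2 scale with a median of 6.93, against a median of 7.82 for all tomato probe sets. The median SD within a group was 0.071 for the selected probe sets and 0.066 for all. Probe sets with the A1 mark in their name (as opposed to S1, marks of orientation) were 1 of the 47 (2.13%), against 23.7% of all tomato probe sets, and those designed from the LesAffx sequences were 25 of the 47 (53.2%), against 41.5%. Neither share was tested.

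Relative to the control mean, the median of the 47 lay at 0.71, 0.79 and 0.77 on the 3 amdS122 arrays and at 0.69, 0.74 and 0.71 on the 3 amdS6 arrays. It was 0.07, 0.02 and 0.09 on the T34 arrays and -0.04, 0.00 and 0.02 on the control arrays. Thus the arrays of each group lay close together, and the median of all tomato probe sets stayed between -0.01 and 0.04 on every array. All 6 transformant arrays were above all 6 other arrays in each of the 47, which holds for 13.0% of all tomato probe sets and follows in large part from the rule. The gap between the lowest transformant array and the highest other array ranged between 0.095 and 1.05, with a median of 0.43.

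**Figure D1:**
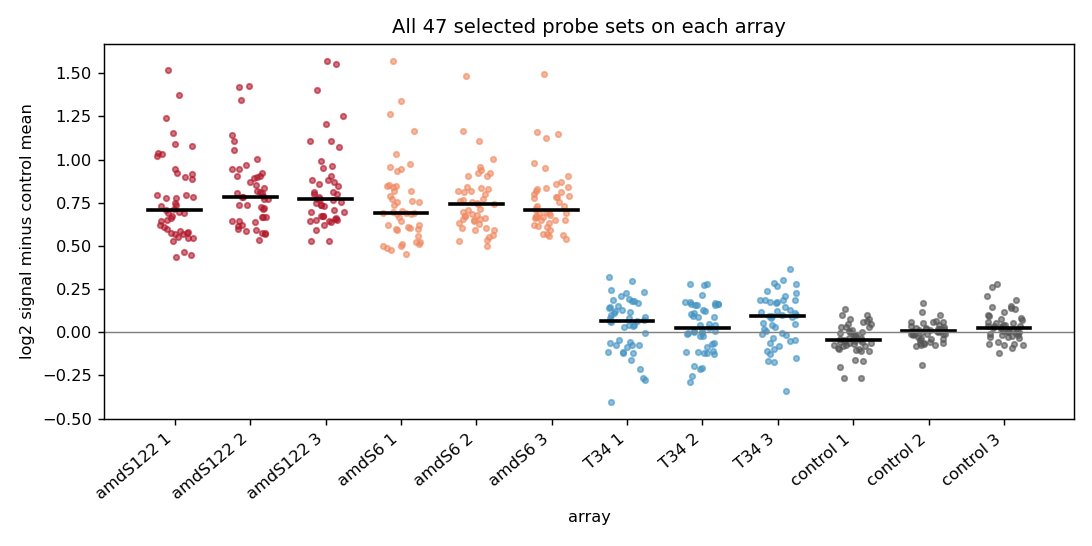
Log2 signal minus the control mean (vertical axis) for each of the 47 selected probe sets (points) on each of the 12 arrays (horizontal axis), with the median of the 47 as a black bar. The points of the 6 transformant arrays lie at 0.44 or above, and the medians of the T34 arrays lie between 0.02 and 0.09.

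Because the rule used the differences from control, they are given as a description only. In amdS122 plants the differences from control of the 47 ranged between 0.59 and 1.51 (median 0.76, a fold of 1.69), and in amdS6 plants between 0.59 and 1.52 (median 0.70, a fold of 1.62). Over all tomato probe sets the medians were 0.02 and 0.01. At the limits of the methods, an adjusted p of 0.1 (limma) and 2-fold, 8 of the 47 stood in amdS122 (0.438% of all tomato probe sets) and 4 in amdS6 (0.339% of all). Since the rule chose on the same differences, nothing is read from these counts. Only Cel1 and LesAffx.48076.1.S1_at were at least 2-fold above control in both.

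The name "unmoved by T34" holds only as far as the precision of 3 arrays allows. The T34 difference was positive in 32 of the 47 and negative in 15, and its median was 0.07, against 0.00 over all tomato probe sets. Its 95% confidence interval reached beyond 0.2 in size in 36 of the 47 and beyond 0.3 in 20, with the outermost ends at -0.39 and 0.43. The T34 differences were used by the rule too, so their calls are a description only. At the adjusted p of 0.1 (limma), 1 of the 47 was higher and 0 were lower than control in T34 plants. Over all tomato probe sets, 5.72% were higher and 4.17% were lower. The T34 and control arrays did not overlap for some of the 47. For example, Les.2946.2.S1_at, the 1 called higher, measured 10.15, 10.14 and 10.10 in T34 plants, all above the 9.93, 9.99 and 9.99 in control plants (difference 0.16 ± 0.04, SE, limma adjusted p = 0.031). All T34 arrays also stood above control for Les.2350.1.S1_at, among others, and below it for LesAffx.46550.1.S1_at, among others. How often this happens over all tomato probe sets was not counted here.

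The same rule applied to 2 of the 3 arrays per group, and then read on the arrays that were left out, gave values that had no part in the choice. With replicate 1 left out, 54 probe sets were chosen, 34 of them among the 47. In the left-out arrays all 54 were above control in both transformants, 28 passed the 1.5-fold limit in both, and T34 was within 0.2 in 39. With replicate 2 left out, all 41 chosen probe sets were above control in both, 25 passed the limit in both, and T34 was within 0.2 in 31. The third case gave 38, all above control, with 25 past the limit in both and 30 with T34 within 0.2. For comparison, 1.01% to 1.28% of all tomato probe sets passed the limit in both transformants on the single left-out arrays, and 36.4% to 42.8% were above control in both. So the probe sets chosen on 2 arrays per group were also above control in both transformants on the left-out arrays. The limits themselves divided probe sets that lie close to them. These lists match the 47 only in part, every array entered the choice of the 47, and all arrays had been normalized together. The readings are therefore no independent test of the 47.

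Cel1 (Les.3667.1.S1_at), an endo-1,4-β-glucanase, had the largest mean difference of the 47. It measured 9.34, 9.25 and 9.39 in amdS122 plants, 8.99, 8.92 and 8.98 in amdS6 plants, 7.70, 7.73 and 7.65 in T34 plants and 7.71, 7.77 and 7.97 in control plants. The amdS122 arrays were highest, the amdS6 arrays came next without overlap, and T34 and control overlapped. The mean was 2.84-fold above control in amdS122 plants and 2.21-fold above it in amdS6 plants.

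LesAffx.48076.1.S1_at, listed in the study as of unknown function, followed with 2.59-fold and 2.31-fold above control in amdS122 and amdS6 plants. Its signals were 7.66, 7.63 and 7.69 in amdS122 plants, 7.63, 7.45 and 7.41 in amdS6 plants, 6.32, 6.23 and 6.14 in T34 plants and 6.37, 6.28 and 6.22 in control plants. The T34 and control arrays overlapped throughout, and the lowest amdS122 array was just above the highest amdS6 array.

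CHS1 (Les.3650.1.S1_at), a chalcone synthase that RefSeq also lists under the synonym CHS3, was the selected probe set with the widest gap between the transformants. Its signal was 8.39, 8.33 and 8.39 in amdS122 plants and 9.18, 9.10 and 9.11 in amdS6 plants, against 7.33, 7.33 and 7.61 in T34 plants and 7.51, 7.64 and 7.69 in control plants. The transformants did not overlap each other or the remaining arrays. Relative to control the fold was 1.69 in amdS122 plants and 2.86 in amdS6 plants, and the T34 mean was 0.19 below control (log2), which is near the limit set for T34.

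SBT1 (Les.15.1.S1_at), a subtilase, was among the dimmer probe sets. It measured 6.64, 6.63 and 6.67 in amdS122 plants, 6.99, 6.68 and 6.87 in amdS6 plants, 5.56, 5.72 and 5.91 in T34 plants and 5.75, 5.66 and 5.75 in control plants. The T34 arrays spread around the control arrays, with an SD of 0.18 against 0.05 in control plants. The means were 1.90-fold and 2.18-fold above control in amdS122 and amdS6 plants.

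LOC543580 (Les.3548.1.S1_at) had 9.30, 9.38 and 9.41 in amdS122 plants, 9.20, 9.22 and 9.28 in amdS6 plants, 8.85, 8.65 and 8.89 in T34 plants and 8.53, 8.57 and 8.73 in control plants. The T34 mean was 0.19 above control with overlapping arrays, so this probe set lies close to the T34 limit. LOC543656 (Les.6.1.S1_at) was the brightest of the 5 with a symbol, at 11.71, 11.73 and 11.76 in amdS122 plants, 11.80, 11.76 and 11.86 in amdS6 plants, 11.06, 10.99 and 11.01 in T34 plants and 11.06, 11.07 and 11.19 in control plants. Its differences from control were 0.63 in amdS122 and 0.70 in amdS6 plants, near the lower limit of the rule.

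**Figure D2:**
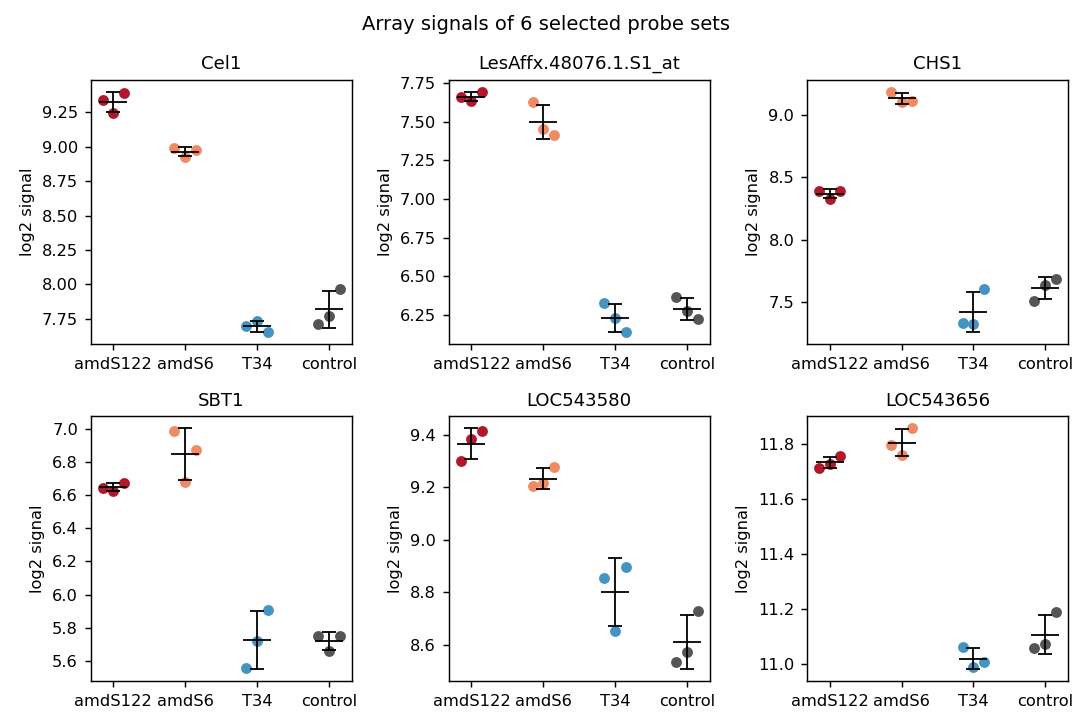
Log2 signal (vertical axes) of Cel1, LesAffx.48076.1.S1_at, CHS1, SBT1, LOC543580 and LOC543656 on each array (points) of the amdS122, amdS6, T34 and control groups, with the mean and SD of 3 arrays in black. In all 6 panels the transformant arrays lie above the T34 and control arrays, and CHS1 is higher in amdS6 than in amdS122 while Cel1 is the other way round.

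The transformants were then compared with each other, a difference on which the rule puts no limit, although each of its 2 means entered the rule through a lower limit. With limma over all 10038 tomato probe sets and an adjusted p of 0.1, 13 of the 47 were higher in amdS122 than in amdS6 plants (27.7%, where 19.4% of all tomato probe sets were) and 6 were lower (12.8%, where 18.7% were). The median difference was 0.01, as over all tomato probe sets (0.02). A difference of under 0.2 in size was found in 31 of the 47, and 28 were not called. The intervals of the 28 reached between -0.39 and 0.44, so differences of that size stay within them. Only 1 probe set in each direction was at least 1.5-fold apart. The arrays of amdS122 all stood above those of amdS6 in 16 of the 47 (24.0% of all tomato probe sets), the amdS6 arrays all stood above in 9 (22.0% of all), and 22 overlapped. With signals scaled to the hybridisation spikes instead, which lie lowest on the amdS6 arrays, 1 of the 47 was higher and 27 were lower in amdS122. Of all 10038 tomato probe sets, 62 were then higher and 6132 were lower, so the counts of the 47 are not read as a result about them. That scaling moved the median difference of all tomato probe sets to -0.32, and the median of the 47 relative to it remained -0.01.

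CHS1 was 1.69-fold higher in amdS6 than in amdS122 plants (amdS122 minus amdS6 -0.76 ± 0.07 on the log2 scale, SE, limma adjusted p = 1.1e-05). Les.824.1.S1_at was 1.56-fold higher in amdS122 than in amdS6 plants (difference 0.64 ± 0.10, limma adjusted p = 0.00036). These were the 2 probe sets past 1.5-fold. Les.824.1.S1_at measured 7.28, 7.46 and 7.59 in amdS122 plants, 6.72, 6.94 and 6.72 in amdS6 plants, 6.12, 5.78 and 5.91 in T34 plants and 6.02, 5.98 and 6.11 in control plants, without overlap between the transformants.

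Among the other probe sets higher in amdS122, LesAffx.60146.2.S1_at differed by 0.47 ± 0.05. Its signal was 9.30, 9.26 and 9.40 in amdS122 plants and 8.85, 8.86 and 8.84 in amdS6 plants, against 8.07, 8.13 and 8.14 in T34 plants and 8.09, 8.20 and 8.16 in control plants. LesAffx.71527.1.S1_at differed by 0.44 ± 0.09, with 7.12, 7.17 and 7.14 in amdS122 plants and 6.80, 6.59 and 6.70 in amdS6 plants. Both stood apart on every array of the 2 transformants.

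LesAffx.71377.1.S1_at also differed by 0.44 (SE 0.08), at 7.42, 7.44 and 7.68 in amdS122 plants and 6.99, 7.06 and 7.15 in amdS6 plants. Les.3290.1.S1_at differed by 0.37 ± 0.05, at 10.57, 10.70 and 10.72 in amdS122 plants and 10.26, 10.33 and 10.29 in amdS6 plants. For Cel1 the difference was 0.36 ± 0.06 (limma adjusted p = 0.0011), again with no overlap between the transformants. Under the spike scaling, LesAffx.60146.2.S1_at, LesAffx.71527.1.S1_at, LesAffx.71377.1.S1_at, Les.3290.1.S1_at and Cel1 all lost their call. Their differences were then between 0.03 and 0.14. LesAffx.48076.1.S1_at was called with a difference of 0.16 ± 0.07 (limma adjusted p = 0.077), but under the spike scaling its difference was -0.17. Its call was also lost in 7 other fits that kept the direction. Among them were those without amdS122 replicate 1, 2 or 3 or amdS6 replicate 2 or 3 (limma adjusted p between 0.11 and 0.25).

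In the other direction, Les.5842.1.S1_at was 1.28-fold higher in amdS6 plants, with 7.96, 7.84 and 7.90 in amdS122 plants and 8.24, 8.23 and 8.29 in amdS6 plants (difference -0.35 ± 0.05). LesAffx.64583.1.S1_at (-0.29 ± 0.10), Les.2946.2.S1_at (-0.23 ± 0.04) and Les.4149.2.S1_a_at (-0.22 ± 0.06) were also lower in amdS122 than in amdS6 plants. The call of LesAffx.64583.1.S1_at was lost without amdS6 replicate 1 (limma adjusted p = 0.11).

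The remaining 3 probe sets with a symbol did not pass the test. The difference of SBT1 was -0.20 with a 95% confidence interval between -0.39 and -0.01 (limma adjusted p = 0.11), close to the threshold. It passed in 6 of the fits without a block: without amdS6 replicate 2 (-0.28, adjusted p = 0.033), without T34 replicate 1 (0.075) or 3 (0.064), on the transformant arrays alone (0.090), without dim probe sets (0.087) and under the spike scaling (-0.53, 0.0020). That of LOC543580 was 0.13, between -0.02 and 0.28, and it was -0.20 under the spike scaling, while it passed on the transformant arrays alone (adjusted p = 0.079) and after median centring (0.065). That of LOC543656 was -0.07, between -0.17 and 0.03, and passed under the spike scaling (-0.40, adjusted p = 0.018). These intervals leave room for differences of up to 0.39 in size on the log2 scale.

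**Figure D3:**
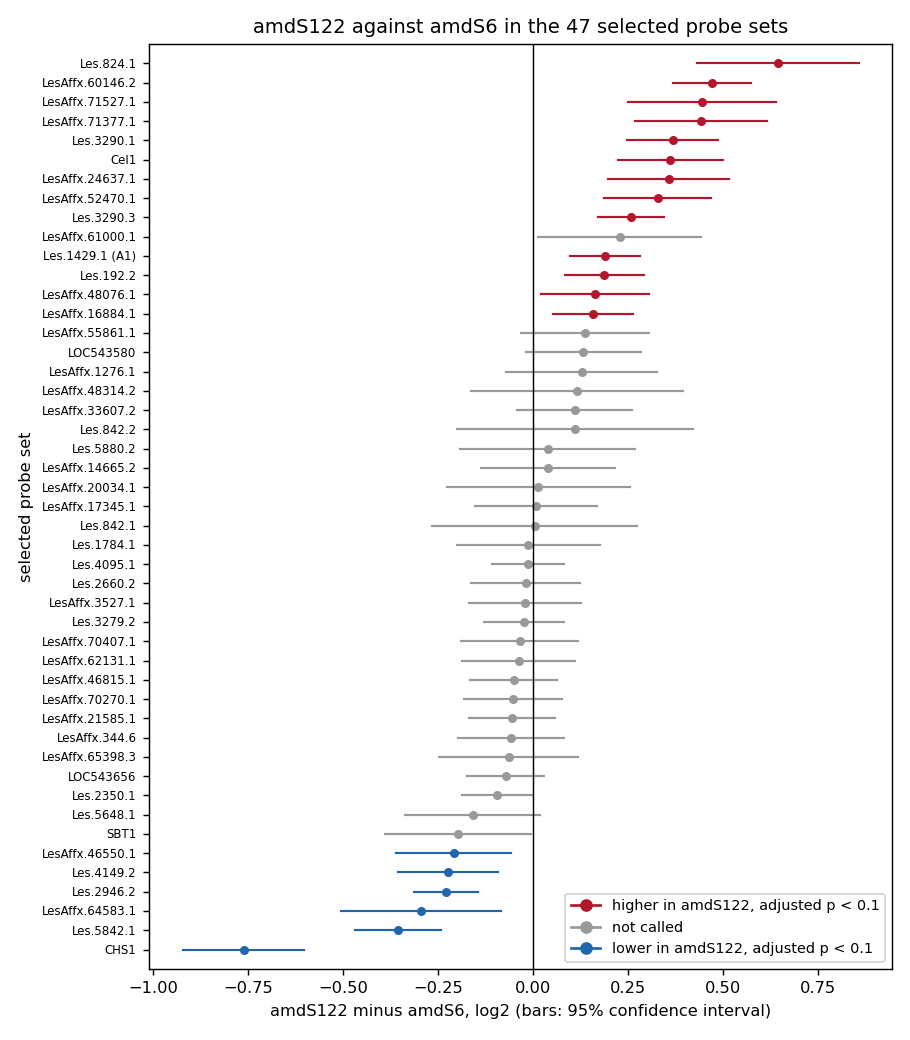
Difference between amdS122 and amdS6 plants on the log2 scale (horizontal axis, points, with 95% confidence intervals as bars) for the 47 selected probe sets in order of size (vertical axis), coloured by the limma call at an adjusted p of 0.1. There are 13 red probe sets, higher in amdS122, and 6 blue ones, lower in amdS122, and CHS1 and Les.824.1.S1_at stand at the ends at -0.76 and 0.64.

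The 32 selected probe sets that are not described singly overlapped in size with the others. Their differences from control ranged between 0.61 and 1.06 in amdS122 plants, between 0.59 and 0.91 in amdS6 plants and between -0.19 and 0.20 in T34 plants. Of these, 6 were higher and 1 was lower in amdS122 than in amdS6 plants, and 25 were not called. Over all tomato probe sets, 19.4% were higher and 18.7% were lower. The largest differences in each direction were described singly and are not among the 32, so nothing is read from these counts. The largest difference from control in amdS122 plants among the 32 was 1.06, that of Les.192.2.S1_at, a probe set picked out after its values were seen. It measured 10.64, 10.56 and 10.67 in amdS122 plants, 10.51, 10.39 and 10.40 in amdS6 plants, 9.48, 9.43 and 9.51 in T34 plants and 9.51, 9.56 and 9.60 in control plants.

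Other probe sets of the same clusters were read beside the probe sets chosen by the rule. Such probe sets can stand for another part of the same transcript, for a splice form or for a related gene, and some share probes, so that they are not independent of the selected ones. They were looked at after the selection, and the counts are given as a description. In 20 of the 45 clusters there were 30 further probe sets. At the adjusted p of 0.1 (limma), 19 of the 30 were higher in amdS122 than in control plants and 4 were lower, where 30% (3014) and 22.0% of all tomato probe sets were. In amdS6 plants, 20 were higher and 3 were lower than in control plants, where 29.0% and 20.9% of all were. In T34 plants, 4 were higher and 2 were lower, where 5.72% and 4.17% of all were. The median differences from control were 0.36 in amdS122, 0.27 in amdS6 and 0.01 in T34 plants. In a fit that also held the RNA quality measure (3′ minus 5′), 10 were higher in amdS122 and 12 in amdS6 plants. That measure differs between the groups, and the shares of all tomato probe sets in this fit are not given here. The lower counts are therefore not read as a result about these probe sets.

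LesAffx.60146.1.S1_at stood furthest above control in amdS122 plants among the 30, at 8.39, 8.50 and 8.27 in amdS122 plants, 7.89, 8.02 and 8.05 in amdS6 plants, 7.32, 7.22 and 7.28 in T34 plants and 7.47, 7.38 and 7.38 in control plants. It followed the order of the selected LesAffx.60146.2.S1_at, with amdS122 above amdS6 and both above the remaining arrays, and its folds over control were 1.96 and 1.49. For LOC543580 a probe set of the opposite mark, Les.3548.1.A1_at, was 1.32-fold above control in amdS122 plants (limma adjusted p = 0.0054) and 1.22-fold above it in amdS6 plants (adjusted p = 0.034). In the cluster of Les.3290.1.S1_at and Les.3290.3.S1_at, both selected, the third probe set Les.3290.2.S1_at differed from control by -0.15 in amdS122 and -0.27 in amdS6 plants and passed in neither.

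The LesAffx.344 cluster was the largest of the 20 and held probe sets that moved both ways. It has 10 probe sets, of which LesAffx.344.6.S1_at was selected (8.78, 8.88 and 8.83 in amdS122 plants, 8.81, 8.98 and 8.87 in amdS6 plants, 8.51, 8.38 and 8.29 in T34 plants and 8.27, 8.23 and 8.14 in control plants). LesAffx.344.3.S1_at, which the study describes by its similarity to the tobacco elicitor-induced protein NtEIG-E80, stood at 6.33, 6.32 and 6.46 in amdS122 plants and 6.52, 6.48 and 6.47 in amdS6 plants, against 10.05, 9.97 and 10.08 in T34 plants and 10.26, 10.17 and 10.24 in control plants. This was 14.4-fold below control in amdS122 plants and 13.3-fold below it in amdS6 plants. Among the 9 other probe sets of the cluster, 4 were higher and 3 were lower than control in each transformant. Over all tomato probe sets, 30% were higher and 22.0% lower in amdS122 plants, and 29.0% and 20.9% in amdS6 plants. This cluster was set aside only after its values were seen. Without it, 15 of 21 probe sets were higher and 1 was lower than control in amdS122 plants, and 16 were higher and 0 were lower in amdS6 plants. T34 plants then had 0 higher and 1 lower, where 5.72% and 4.17% of all were.

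**Figure D4:**
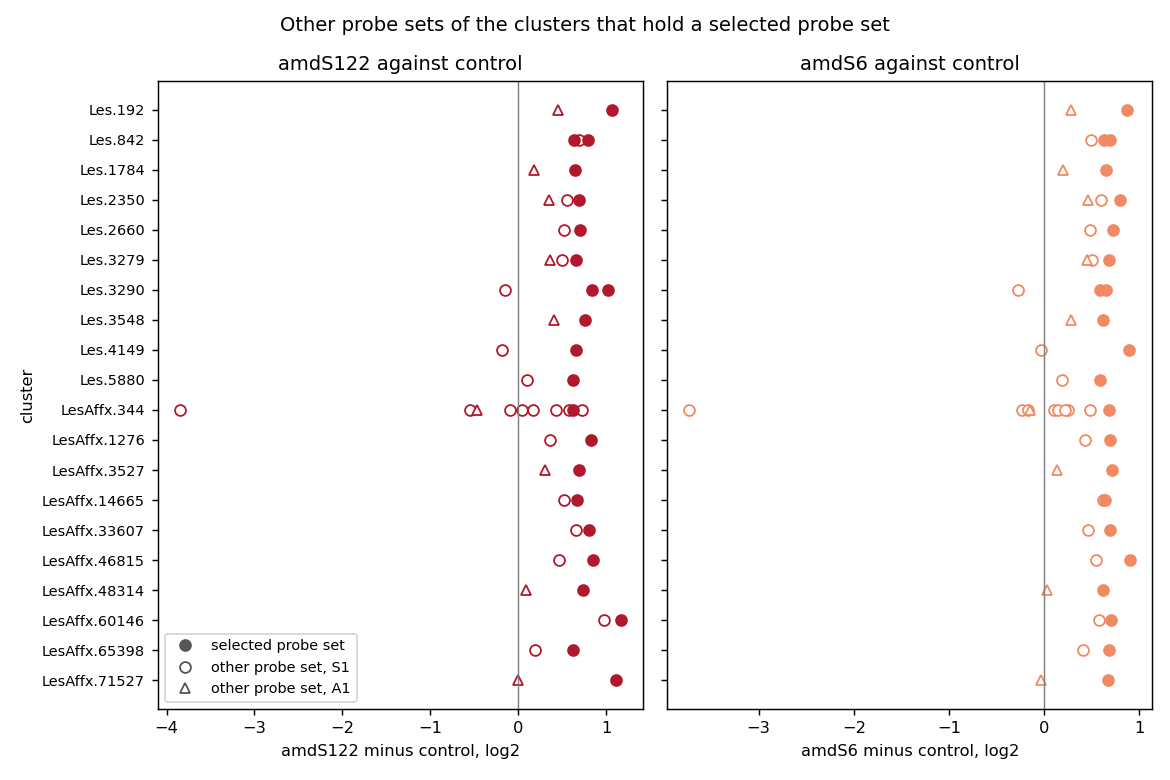
Difference from control on the log2 scale (horizontal axes) in amdS122 plants (left) and amdS6 plants (right) for the 20 clusters (vertical axis) that hold a selected probe set (filled circles) and others (open circles for S1 names, open triangles for A1 names). Most open marks lie to the right of 0, and LesAffx.344.3.S1_at lies far to the left at -3.85 and -3.73.

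The families of the named enzymes did not all move in 1 direction. For chalcone synthase the array has 1 further probe set, CHS2, which is close in sequence to CHS1, and cross-hybridisation between them was not tested. CHS2 measured 9.35, 9.42 and 9.33 in amdS122 plants, 10.65, 10.64 and 10.61 in amdS6 plants, 9.01, 9.02 and 9.19 in T34 plants and 9.09, 9.17 and 9.11 in control plants. It was 1.18-fold above control in amdS122 plants (limma adjusted p = 0.0023) and 2.85-fold above it in amdS6 plants (adjusted p = 7e-10). As with CHS1, amdS122 was lower than amdS6 (difference -1.27, limma adjusted p = 1.1e-08), but CHS2 missed the selection through its amdS122 value.

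Of the 7 endo-1,4-β-glucanase probe sets, 4 were higher and 2 were lower than control in amdS122 plants, beside 30% and 22.0% of all tomato probe sets. In amdS6 plants 4 were higher and 0 were lower, beside 29.0% and 20.9% of all, and in T34 plants 0 were higher and 1 was lower, beside 5.72% and 4.17%. The counts include Cel1, which the rule placed among the higher ones in both transformants. Cel2, CEL8 and Cel3 were higher than control in amdS122 plants by only 1.08-fold, 1.16-fold and 1.14-fold. The probe sets CELLULASE and cel5 fell by 0.71 and 0.53 on the log2 scale in amdS122 plants. In amdS6 plants CELLULASE was higher than control by 1.22-fold, and it was lower in amdS122 than in amdS6 plants (limma adjusted p = 4.2e-07), opposite in direction to Cel1.

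The wider list of cell wall growth genes, expansins, xyloglucan endotransglucosylases and cell wall hydrolases, had 39 probe sets, of which Cel1 alone was selected. Cel1 was left out of the counts, because the rule placed it among the higher ones. Of the other 38, 18 were higher and 11 lower than control in amdS122 plants, where 30% and 22.0% of all tomato probe sets were. In amdS6 plants 22 were higher and 5 were lower, where 29.0% and 20.9% of all were. In T34 plants 8 were higher and 3 were lower, where 5.72% and 4.17% of all were. The medians of the 39 were 0.08, 0.17 and 0.03 in amdS122, amdS6 and T34 plants, against 0.02, 0.01 and 0.00 over all tomato probe sets. Of the expansins and endotransglucosylases, EXP5 and XTH5 missed the selection with amdS6 differences of 0.51 and 0.41. Others went down, and XTH3 differed from control by -2.01 in amdS122, -2.13 in amdS6 and -0.41 in T34 plants. EXPA10 differed by -0.43 in amdS122 and by 0.22 in amdS6 plants.

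Among 6 subtilase probe sets, 3 were higher and 2 were lower than control in amdS122 plants, with 30% and 22.0% of all tomato probe sets so called. In amdS6 plants 3 were higher and 1 was lower (29.0% and 20.9% of all), and in T34 plants 2 were higher and 1 was lower (5.72% and 4.17% of all). The counts include SBT1, which the rule placed among the higher ones in both transformants. The probe set of sbt3 was 1.61-fold above control in amdS122 plants and 1.22-fold above it in amdS6 plants, but its T34 difference of 0.20 passed the test (limma adjusted p = 0.028) and lay past the limit of the rule. P69B, a subtilase induced in pathogen defence, was lower than control in both transformants, by 0.45 in amdS122 and 1.22 in amdS6 plants on the log2 scale, and 1.17-fold above control in T34 plants.

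**Figure D5:**
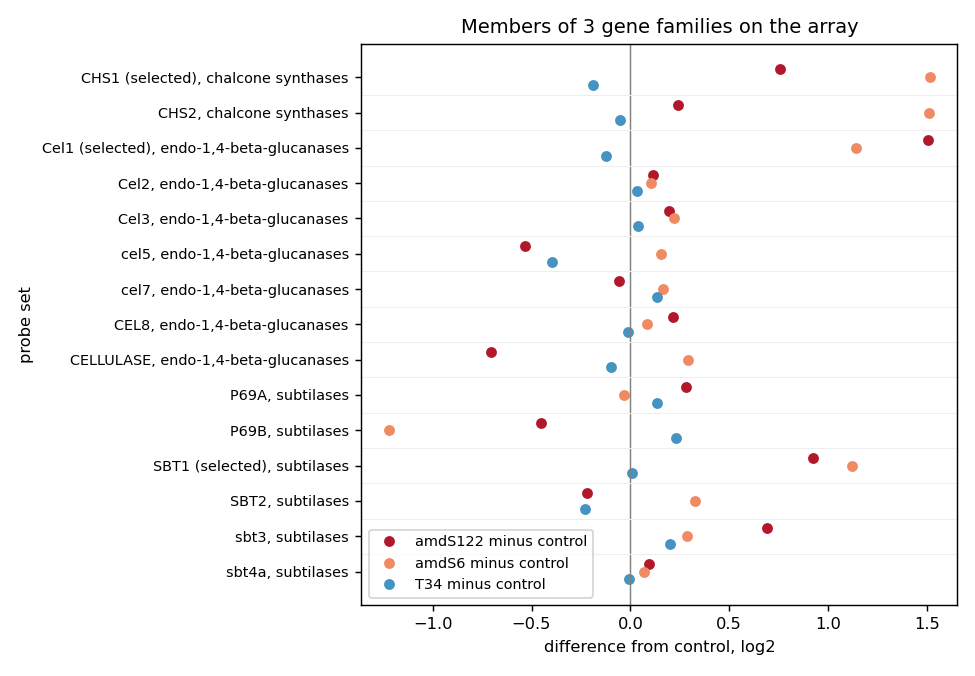
Difference from control on the log2 scale (horizontal axis) in amdS122, amdS6 and T34 plants (points) for the probe sets of the chalcone synthase, endo-1,4-β-glucanase and subtilase families (vertical axis), with the selected ones marked. Within each family the selected probe set has both transformant points far to the right and the T34 point near 0, while P69B, cel5 and CELLULASE have points on the left.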

How the data were processed

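The deposited values are log2 signals of the Affymetrix Tomato Genome Array. The authors made them from the scanned arrays by RMA in Expression Console (versions not given in the sources used here), with background correction, quantile normalization over the arrays and summary of probes into probe sets. RMA compresses differences of dim probe sets, and quantile normalization removes shifts shared by all. The signals were used as deposited. Of 10209 features, 10038 tomato probe sets were tested.

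The selected probe sets follow a rule on group means, and they and the gene lists were chosen with earlier results of these data known. The fit was made in R 4.3.3 with limma 3.58.1 on the 12 arrays, each group having its own mean (prior degrees of freedom 3.69, residual 8), with Benjamini-Hochberg adjustment over all tomato probe sets. Calls used an adjusted p under 0.1, the FDR of the methods. The multi-class SAM of the methods gives no pairwise comparison and was not used. The script was tested on simulated data. The probe sets named are those with a symbol, those in the tables of the study, the 5 with the highest mean transformant difference and the 5 largest amdS122 minus amdS6 differences in each direction. Gene lists followed symbols, of which 909 of the probe sets have 1. Of 17 lists, 2 held a selected probe set, cell wall growth and flavonoid and phenylpropanoid (only CHS1 and CHS2 matched). The 3 families were added after the members were known. The number of arrays limits the precision, and the replicates are labelled biological, so p-values measure the spread between pools of plants. Sequences and promoters were not analysed here. Alternatives were other scalings, group summaries, filters, limits and variance models. Further ones were an RNA quality covariate, a block for replicate numbers and leaving out arrays.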

Additional observations from a re-analysis of the deposited data

Results flagged for a closer look

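For 12 of the 15 probe sets described singly, the response to the transformants differed between amdS122 and amdS6 plants by a limma test of that difference at an adjusted p of 0.1. Higher in amdS122 plants were Les.824.1.S1_at (difference 0.64 on the log2 scale), LesAffx.60146.2.S1_at (0.47), LesAffx.71527.1.S1_at (0.44), LesAffx.71377.1.S1_at (0.44), Les.3290.1.S1_at (0.37), Cel1 (0.36) and LesAffx.48076.1.S1_at (0.16). Lower in amdS122 plants were CHS1 (-0.76), Les.5842.1.S1_at (-0.35), LesAffx.64583.1.S1_at (-0.29), Les.2946.2.S1_at (-0.23) and Les.4149.2.S1_a_at (-0.22). Of the 12, 10 were described because this difference was among the 5 largest in its direction, so their number says nothing about the other selected probe sets. No group had enough arrays for a check of single outlying arrays.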

How the results depend on the processing

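Without 1 array, or without 1 replicate number in every group, the rule took between 38 and 54 probe sets. Without control replicate 1 or 3, 31 and 35 of the 47 were among them, and without replicate 3 in every group, 30 were. Group medians of the arrays in place of means gave 42 probe sets, 29 of them among the 47. Scaling on the hybridisation spikes gave 126 probe sets, 29 of them among the 47, and put the median of all tomato probe sets at 0.37 in amdS6 plants relative to control, against 0.01 as deposited. A T34 limit of 0.1 left 22, and a 2-fold limit on the transformants left 2. Between amdS122 and amdS6, the spike scaling gave 1 higher and 27 lower, a fold limit of 1.5 gave 1 higher and 1 lower, and leaving out 1 array gave between 11 and 14 higher and between 4 and 9 lower. The difference of LesAffx.48076.1.S1_at turned to -0.17 under the spike scaling. Against control at 2-fold, leaving out 1 array gave between 6 and 8 in amdS122, 4 throughout in amdS6 and 0 throughout in T34. The spike scaling gave 34 in amdS6, and no fold limit gave 47, 47 and 1 in amdS122, amdS6 and T34, counts that the rule largely fixes. With the 3′ minus 5′ covariate, 10 and 12 of the 30 other probe sets of the clusters were higher than control in amdS122 and amdS6, and without 1 array between 18 and 20 and between 17 and 20 were. The shares of all tomato probe sets in the covariate fit are not given here, so the lower counts are not read as a result.

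The labels tie the replicate numbers to no shared batch, and residuals of same-numbered arrays correlated by 0.18 on average, between -0.05 and 0.55 over 18 pairs. With the replicate number as a block, 15 were higher and 7 lower in amdS122 than in amdS6, 8, 4 and 0 passed 2-fold against control in amdS122, amdS6 and T34, and 21 and 21 of the other cluster probe sets were higher in amdS122 and amdS6. For the probe sets described singly, 290 of 315 differences under the alternatives kept their direction and call, 13 lost the call, 10 gained it and 2 turned, LesAffx.48076.1.S1_at and LOC543580, both under the spike scaling. The block gave SBT1 an adjusted p of 0.095. The settings for the other cluster probe sets were chosen after seeing the data. The promoter motif search was not run. The cause of these changes was not tested.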
